A study of Mus musculus with 25 samples.

Results

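The mitochondrial ribosomal protein genes are the genes whose symbol begins with Mrpl or Mrps followed by a number. By that rule, 78 of the 25006 entries of the table were members, all 78 had a mean normalized count of at least 10 over the libraries, and all entered the test beside 12262 genes in total. By their known place in the mammalian mitochondrial ribosome, 51 encode proteins of the large subunit and 26 proteins of the small subunit. The last one, Mrps36, carries the name but is now known as a component of the 2-oxoglutarate dehydrogenase complex.

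By their labels, the libraries came from RNA of CD8+ T cells enriched out of E0771 tumours, which grow from a mammary carcinoma line, in C57BL/6 mice. The 3 libraries of the treated group came from mice given anti-CD73, an antibody against the cell-surface enzyme that forms adenosine outside cells, every 3 days. The 3 control libraries carry the treatment label "con", which does not say whether an antibody was given, and no age, sex or shared genetic change is given for either group. Nothing in the labels assigns each numbered replicate to an animal of its own, and the p-values therefore rest on a spread between libraries that may be technical. The other 19 of the 25 samples in the series were not analysed here.

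Mitochondria keep their own ribosomes, which translate the few proteins encoded by mitochondrial DNA, all of them core parts of the respiratory chain and ATP synthase. The RNA of this ribosome is transcribed inside the organelle, but its proteins are encoded in the nucleus, made in the cytosol and imported. Some of the proteins descend from the ribosome of the bacterial ancestor, and others were added in the course of mitochondrial evolution. T cells need mitochondrial translation to expand after activation and to make effector molecules, and tumour cells and macrophages express the same genes.

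The material was mixed in spite of the CD8+ T cell label, and the marker lists bear on every value given here. T cell markers took a far smaller share of the reads than macrophage or erythroid markers. Of 16 T cell markers, 13 were found by name, and together they took 0.00166 to 0.00608% of reads in control libraries and 0.00306 to 0.00609% in anti-CD73 libraries. The 14 macrophage markers took 0.0821 to 0.156% and 0.144 to 0.241%, the 10 neutrophil markers 0.0450 to 0.0615% and 0.0695 to 0.124%, and 8 erythroid markers 0.243 to 1.88% and 0.280 to 1.04%. The 11 fibroblast markers took 0.0350 to 0.0434% and 0.0514 to 0.0606%, the 7 endothelial markers 0.00353 to 0.00771% and 0.00753 to 0.0125%, the 8 epithelial markers 0.0151 to 0.0363% and 0.0173 to 0.0219%, and the 5 B cell markers 0.00453 to 0.00785% and 0.00733 to 0.00747%. None of these markers was at 0 in all 6 libraries, and their part in the results was not tested. In such bulk samples, fewer cells of a type and less RNA per cell cannot be told apart. The libraries held 10180624 to 17161679 reads in genes, as recovered from the deposited values, of which 27166 to 49785 fell in the 78 members, and the smallest value of any member rested on 10 reads.

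Promoter sequence is shown first for the members whose start regions carry letters of factors known to act on genes for mitochondrial proteins. The RefSeq table for build GRCm38.p6, the assembly of mm10, held a promoter window of 300 bases (250 before the gene's start and 50 after) for 69 of the 78 members. The letters searched, on both strands, were GCGCATGC for the core site of nuclear respiratory factor 1 (NRF1), CCGGAAG for the ETS family that includes GABP, AAGATGG for YY1, CACGTG for the E-box bound by MYC and TGACGTCA for the cyclic AMP response element. The ETS core lay in 26 of the 69 windows, or 37.7%, against 9.08% of all 27025 promoters and 18.5% of the 9469 promoters of tested genes, matched by symbol. The NRF1 core lay in 8 windows, 11.6%, against 2.78% and 5.35%. The YY1 core lay in 13 windows, 18.8%, against 6.46% and 7.46%. The E-box lay in 5 windows, 7.25%, against 7.09% and 10.1%, and the cyclic AMP element in 2 windows, 2.90%, against 1.78% and 3.19%. A match describes letters, not a bound site.

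The stretches below hold only bases before the gene's start and outside neighbouring genes, written 5′ to 3′ on the gene's strand, with matched motifs in capitals. Mrpl16 had the smallest p of all members and carried the cyclic AMP element 49 bases before its start (chr19:11770165-11770414, plus strand). Mrpl10 was the first member among those with higher values whose motif lay in a stretch that could be shown, with an NRF1 core 134 bases before its start (chr11:97041370-97041581, plus strand). Mrpl32 was chosen after its values were seen, because it carried 4 matches of the NRF1 core, an overlapping pair at 87 and 85 bases and single ones at 66 and 22 bases before its start (chr13:14613038-14613241, minus strand). The last stretch, also chosen afterwards, is the whole 41 bases between Mrpl46 and Mrps11, a large-subunit and a small-subunit gene that start back to back on opposite strands (chr7:78783090-78783130, written on the plus strand, that of Mrps11), and it holds none of the motifs.
Mrpl16: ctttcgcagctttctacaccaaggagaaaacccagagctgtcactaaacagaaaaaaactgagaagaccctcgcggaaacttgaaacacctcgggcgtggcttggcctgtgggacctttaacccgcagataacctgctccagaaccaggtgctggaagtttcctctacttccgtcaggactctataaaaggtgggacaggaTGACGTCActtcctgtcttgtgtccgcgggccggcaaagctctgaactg
Mrpl10: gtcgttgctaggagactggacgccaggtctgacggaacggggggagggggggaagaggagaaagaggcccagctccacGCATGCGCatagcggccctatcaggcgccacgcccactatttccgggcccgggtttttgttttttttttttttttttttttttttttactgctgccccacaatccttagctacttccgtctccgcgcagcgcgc
Mrpl32: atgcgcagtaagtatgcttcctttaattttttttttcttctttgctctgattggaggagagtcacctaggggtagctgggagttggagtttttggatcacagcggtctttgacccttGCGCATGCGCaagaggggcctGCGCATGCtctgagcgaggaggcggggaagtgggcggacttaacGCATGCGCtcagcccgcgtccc
Mrps11: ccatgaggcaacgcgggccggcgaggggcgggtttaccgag

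Taken as a whole, the mitochondrial ribosomal transcripts kept nearly the same share of the libraries in both groups. In control replicates 1 to 3 their share of the recovered reads was 0.255, 0.267 and 0.290%, and in anti-CD73 replicates 1 to 3 it was 0.287, 0.264 and 0.269%. The groups overlapped, with means of 0.271 ± 0.0177% and 0.274 ± 0.0122% (SD, n = 3 each). With the erythroid genes taken out of the totals, the means were 0.275 ± 0.0199% and 0.276 ± 0.0121%. The large-subunit genes took 0.187 ± 0.0117% in the controls and 0.190 ± 0.00801% after anti-CD73, and the small-subunit genes 0.0833 ± 0.00591% and 0.0835 ± 0.00421%. On the authors' scale, in which each library is divided by its own DESeq size factor, the members summed to 33225, 34419 and 37258 normalized counts in the controls and to 35209, 32525 and 33224 after anti-CD73. The treated mean was 96.2% of the control mean on that scale, again with overlapping groups.

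**Figure D1:**
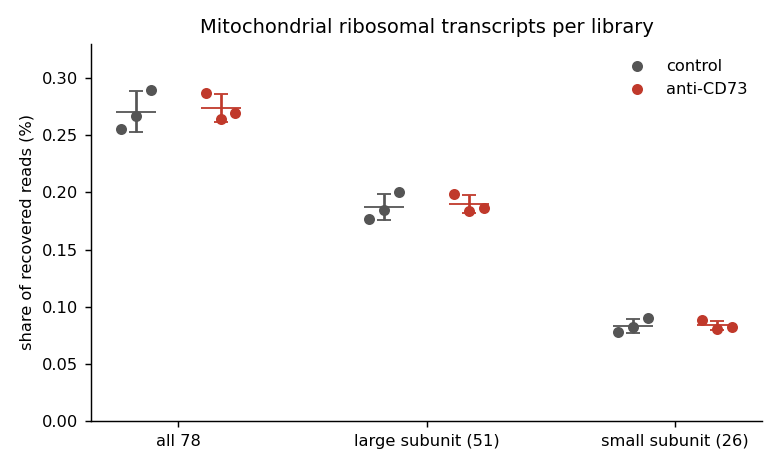
Share of each library's recovered reads (%, vertical axis from 0) taken by all 78 mitochondrial ribosomal genes, the 51 large-subunit genes and the 26 small-subunit genes. Points are libraries and bars the mean ± SD of 3 controls (grey) or 3 anti-CD73 libraries (red), and the 2 groups overlap for each set, with all 78 genes at 0.255 to 0.290% and 0.264 to 0.287%.

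No member passed the test. By limma on log2(normalized count + 1), 0 of the 78 had an adjusted p under 0.05, against 0% of all genes tested. The count test of edgeR on the recovered reads called 0 of 78 members, against 0% of genes, and DESeq2 also called 0 of 78, against 4.93% of the genes to which it gave an adjusted p. At an unadjusted p under 0.05 by limma there were 2 members, both lower after anti-CD73, or 2.56%, against 15.5% of all genes (8.69% higher and 6.82% lower). Groups did not overlap for 11 members, 14.1%, against 23.5% of all genes. Of these, 1 member lay higher, 1.28% against a background of 11.5%, and 10 lay lower, 12.8% against 12%. The share of members that lay higher was thus under the background, and the share that lay lower was near it. By the following settings 1 to 10 members had an unadjusted p under 0.05, against 15.2% of all genes by edgeR, 16.7% by DESeq2, 16% after quantile normalization, 15% with a replicate block, and 36.4, 36.2 and 32.3% by limma, edgeR and DESeq2 without control replicate 1.

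The fold changes of the members were small beside those of other genes, and more of them lay below 0 than above. Their log2 fold changes, anti-CD73 minus control, ran from -0.46 for Mrpl35 to 0.36 for Mrpl54, with a median of -0.03, 46 below 0 and 32 above. All genes tested ran from -2.99 to 2.94, with 6065 below 0 and 6197 above. The median size of a change, whatever its direction, was 0.12 on the log2 scale for the members and 0.21 for all genes. The quartiles of the members lay at -0.14 and 0.07, and those of all genes at -0.18 and 0.24. The members had a median mean level of 375 normalized counts, against 443 for all genes tested. Their coefficient of variation over the 6 libraries was 12.0% in the median against 18.3%. Whether level had a part in the size of the changes was not tested.

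The intervals say how large a change in the mixed material could have gone unseen, given the spread between these libraries. They do not bound a change within T cells, whose markers took a small share of the reads. The 95% interval of the fold change lay wholly within 2-fold either way for 77 of the 78 members, against 74.2% of all genes tested. It lay within 1.5-fold for 52 members, 66.7%, against 39% of all genes. The exception at 2-fold was Mrps36, whose interval ran from -0.53 to 1.04 on the log2 scale and which was measured at 17.7 to 35.0 normalized counts.

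**Figure D2:**
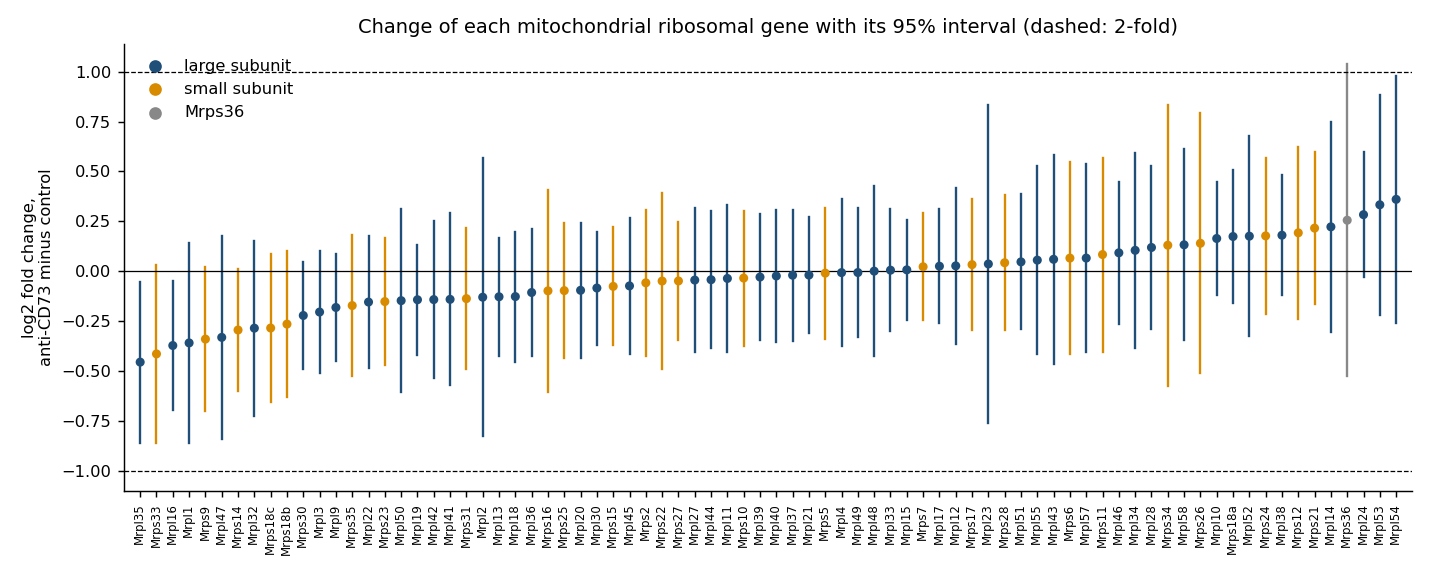
Log2 fold change of each of the 78 genes, anti-CD73 minus control (n = 3 libraries each), with its 95% interval from limma (vertical lines), ordered from lowest to highest and coloured by subunit. Mrpl35 lies lowest at -0.46 and Mrpl54 highest at 0.36, and every interval except that of Mrps36 lies between the dashed lines at 2-fold.

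**Figure D3:**
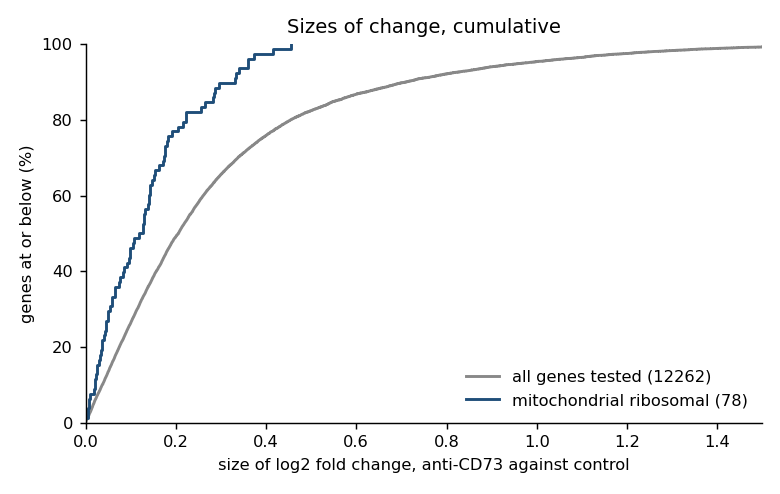
Cumulative share of genes (%, vertical axis) whose log2 fold change is at or below a given size, direction ignored (horizontal axis, shown to 1.5). The line of the 78 mitochondrial ribosomal genes lies left of that of all 12262 genes tested, with medians of 0.12 and 0.21, and ends at 0.46.

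By structural group, the medians stayed near 0. The 51 large-subunit genes had a median log2 fold change of -0.02, with 30 lower, and the 26 small-subunit genes a median of -0.05, with 16 lower. Among large-subunit genes, the 30 that have bacterial counterparts had a median of -0.06 (19 lower, 11 higher), and the 21 specific to mitochondria lay at -0.00005 (11 lower, 10 higher). Among small-subunit genes, the 16 with bacterial counterparts lay at 0.01 in the median (8 lower, 8 higher) and the 10 specific to mitochondria at -0.12 (8 lower, 2 higher). The difference between these groups was not tested.

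Of the large subunit, Mrpl16, which sits near the tRNA binding sites, had the smallest p. It measured 263, 267 and 268 normalized counts in the controls and 226, 201 and 190 after anti-CD73. Every treated library lay below every control. The log2 fold change was -0.37 (SE 0.14, 95% interval -0.70 to -0.05), with an adjusted p of 0.269 by limma. Mrpl35, a further bacterial-type protein of the large subunit, read 618, 404 and 510 in the controls and 370, 353 and 377 after anti-CD73. The treated libraries were close together and again all lower, while the controls were widely spread. Its log2 fold change was -0.46 (SE 0.17), with an adjusted p of 0.278 by limma. These were the 2 members with an unadjusted p under 0.05, by limma.

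Mrpl24, a protein near the exit of the peptide tunnel, was the only member with all treated libraries above all controls. Its controls stood at 246, 229 and 213 and its treated libraries at 271, 281 and 285. Its log2 fold change was 0.28 (SE 0.13), with an adjusted p of 0.360 by limma. The annotation places it over part of another gene, Rrnad1, and the labels do not say whether strand was kept in the libraries, so reads of either could be counted for the other.

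The next higher members overlapped between groups. Mrpl53 read 88.3, 143 and 148 in the controls and 174, 148 and 146 after anti-CD73, with the low value in control replicate 1, and it overlaps Ccdc142 in the annotation. Mrpl54, which had the highest fold change, read 174, 315 and 344 against 336, 382 and 312. Mrpl38, a protein of the central protuberance, read 686, 803 and 891 against 906, 877 and 900. In all 3, the lowest of the 6 libraries was control replicate 1. Their log2 fold changes were 0.33, 0.36 and 0.18 with SEs of 0.24, 0.26 and 0.13.

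The stalk of the large subunit recruits translation factors and is built on Mrpl10 and Mrpl11 with copies of Mrpl12, which has also been found to bind the mitochondrial RNA polymerase. Mrpl10 measured 597, 497 and 541 in the controls and 610, 630 and 587 after anti-CD73. Its fold change was 0.16 on the log2 scale (SE 0.12), with overlapping groups. Mrpl11 measured 230, 199 and 257 against 243, 210 and 215, and its difference was -0.04. Mrpl12 had the highest counts of all members, with 972, 1408 and 1423 in the controls and 1309, 1190 and 1320 after anti-CD73. Its difference was 0.03 (SE 0.17), and it turned to -0.15 without control replicate 1, the lowest library. Mrpl30, a bacterial-type protein with the next most counts, which are not corrected for gene length, read 988, 1163 and 1240 against 1051, 1086 and 1047. Its difference was -0.08 on the log2 scale, with overlapping groups.

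Mrpl3, part of the core near the peptidyl transferase site, read 916, 773 and 862 in the controls and 771, 653 and 791 after anti-CD73. The groups overlapped, and the log2 fold change was -0.21 (SE 0.13). Mrpl45, which anchors the ribosome at the inner membrane, read 428, 338 and 424 against 391, 347 and 389, a difference of -0.07 on the log2 scale. Mrpl44, which has a fold like ribonuclease III, read 266, 252 and 239 against 235, 278 and 224, a difference of -0.04. Mrpl58, a peptidyl-tRNA hydrolase built into the ribosome, read 227, 381 and 341 against 349, 344 and 325. Its difference was 0.13, and control replicate 1 was again the lowest of the 6. Mrpl41 read 159, 199 and 216 against 190, 181 and 148, a difference of -0.14. Mrpl15 was among the steadiest, at 778, 787 and 781 in the controls and 823, 732 and 804 after anti-CD73, and was chosen after its values were seen.

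Of the small subunit, Mrps14, a bacterial-type protein of its head, measured 396, 350 and 380 in the controls and 326, 282 and 310 after anti-CD73. Every treated library was lower, the log2 fold change was -0.30 (SE 0.13) and the adjusted p 0.336 by limma. Mrps9, whose bacterial counterpart touches the tRNA in the peptidyl site, measured 575, 685 and 765 against 537, 468 and 590. One treated library lay above the lowest control, and the log2 fold change was -0.34 (SE 0.15, adjusted p 0.343 by limma). Mrps33, specific to mitochondria, measured 69.0, 68.4 and 79.3 against 53.0, 54.0 and 54.5. The groups did not overlap, with a log2 fold change of -0.41 (SE 0.19, adjusted p 0.349 by limma).

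The decoding centre lies in the small subunit and includes Mrps12 and Mrps5. Mrps12 read 321, 399 and 465 in the controls and 524, 434 and 391 after anti-CD73, a log2 difference of 0.19 (SE 0.18) with overlapping groups. Mrps5 read 394, 462 and 474 against 455, 393 and 474, a difference of -0.01. Mrps21 read 215, 257 and 298 against 319, 283 and 287, and Mrps24 read 301, 424 and 414 against 446, 433 and 395, with log2 differences of 0.22 and 0.18. Mrps22, in which mutations cause a human cardiomyopathy, stood out for 1 library. It read 538 in control replicate 1, and the other 5 libraries lay between 343 and 419, for a difference of -0.05.

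A family of 3 related genes shares the name Mrps18, and their products occupy different places. Mrps18c, the form at the bacterial position in the small subunit, read 278, 238 and 257 in the controls and 232, 224 and 181 after anti-CD73, all treated libraries lower. Mrps18b, elsewhere in the small subunit, read 533, 414 and 462 against 409, 336 and 428, with overlap. Mrps18a, which is a large-subunit protein in spite of its name, read 308, 298 and 382 against 377, 366 and 364, also with overlap. The log2 fold changes were -0.29 (SE 0.16), -0.27 (SE 0.16) and 0.17 (SE 0.14), with adjusted p of 0.431, 0.458 and 0.597 by limma, and the difference between them was not tested. Mrps30, another large-subunit protein under a small-subunit name, read 1009, 921 and 924 against 855, 745 and 848. All its treated libraries were lower, and its log2 fold change was -0.22 (SE 0.11).

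The remaining members whose groups did not overlap were Mrpl9, Mrpl32, Mrpl19 and Mrpl22, all of the large subunit and all lower. Mrpl32, which a protease of the inner membrane trims before it joins the ribosome, read 519, 350 and 336 in the controls and 324, 316 and 329 after anti-CD73. Control replicate 1 was far above the others, and the remaining gap between the groups was narrow. Mrpl9 read 797, 886 and 920 against 797, 722 and 772, so that the lowest control and the highest treated library stood at nearly the same value. The log2 fold changes of these 4 lay between -0.14 and -0.29.

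The 2 members with the fewest counts were Mrpl23 and Mrps36. Mrpl23 read 10.2, 16.5 and 15.0 in the controls and 13.0, 12.7 and 16.5 after anti-CD73, a log2 difference of 0.04 (SE 0.34). Mrps36 read 22.3, 17.7 and 32.2 against 21.4, 29.6 and 35.0, a difference of 0.26 (SE 0.33). RefSeq lists 6 pseudogenes of members, of which 1 is named for Mrpl23 and 3 for Mrps36. The treatment of reads with several matches is not stated in the labels, so the level of both genes is uncertain.

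Within the controls, replicate 1 stood apart from replicates 2 and 3 in the members as in other genes. Its value was the highest of the 6 libraries for 22 members, 28.2%, against 30.7% of all genes tested, and the lowest for 30, 38.5%, against 32.1%. It thus lay outside the range of the other 5 libraries for 52 members, 66.7%, against 62.8% of all genes. Its log2 difference from the other controls had an SD over members of 0.42, against 0.16 between controls 2 and 3, and over all genes these SDs were 0.75 and 0.35. Mrpl2, which lies by the peptidyl transferase centre, showed the largest drop, with 481 normalized counts in control replicate 1 and 1022 and 1087 in the others, -1.13 on the log2 scale. Mrps34 (-1.06), Mrps26 (-1.05), Mrpl54 (-0.92) and Mrpl52 (-0.76) were also low in that library. Mrpl1, at 587 against 341 and 373, was high by 0.72 on the log2 scale, as were Mrpl50 (0.67), Mrpl47 (0.67), Mrps22 (0.60) and Mrpl32 (0.60). These 10 were chosen by the size of that difference.

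The members that were low in control replicate 1 tended to be short genes. The median span in the genome was 4369 bases for the 30 members at which it was lowest, 8386 bases for the 26 at which it was neither and 10023.5 bases for the 22 at which it was highest. Across the 78 members, the difference of control replicate 1 from the other controls went with the log2 of the span at r = 0.43 (Spearman 0.37). Across 11592 tested genes with a span, r was 0.19 (Spearman 0.22). The same difference went with the percent of G and C in the promoter window at r = -0.37 (Spearman -0.40) across 69 members. Across 9319 tested genes with a window, r was -0.15 (Spearman -0.12). These are descriptions across genes that share the same libraries. The fold change of the members, which uses the same library, went with the span at r = -0.31, against -0.01 over all genes. Whether RNA quality or cell makeup had a part in this was not tested. The erythroid markers stood at 0.243% of reads in control replicate 1 and at 1.88 and 1.87% in replicates 2 and 3. Epithelial (0.0151% against 0.0285 and 0.0363%) and neutrophil markers (0.0450% against 0.0615 and 0.0533%) were also lowest there. T cell markers (0.00608% against 0.00166 and 0.00207%) and macrophage markers (0.156% against 0.102 and 0.0821%) were highest there. So were endothelial and B cell markers, and fibroblast markers lay between the other controls.

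**Figure D4:**
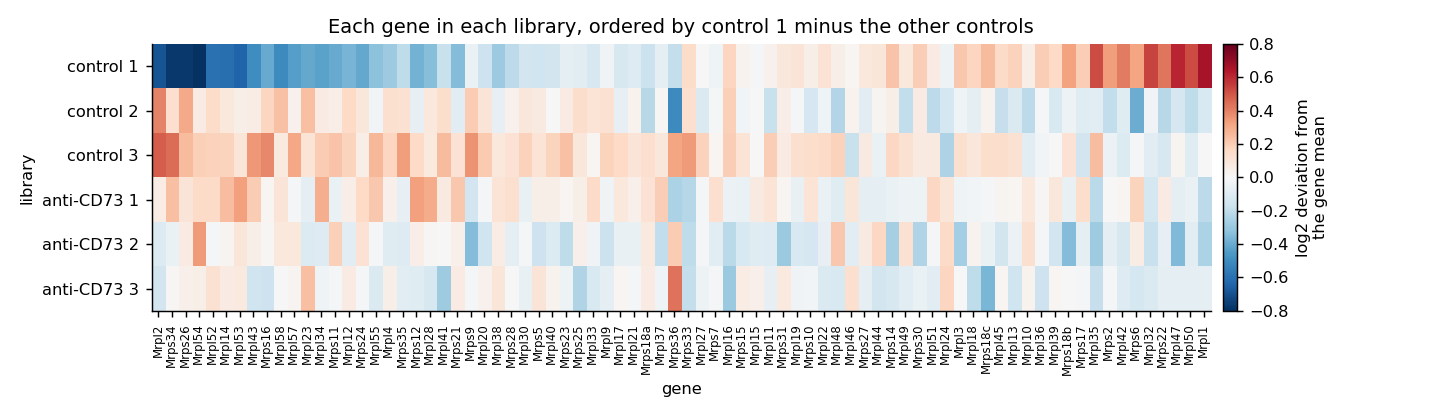
Deviation of each library from the gene's own mean over the 6 libraries (colour, log2 of normalized count + 1, shown between -0.8 and 0.8), for 78 genes (columns) ordered by control replicate 1 minus the mean of the other controls. The row of control replicate 1 runs from Mrpl2 (-1.13 against the other controls) to Mrpl1 (0.72), and the other 5 rows vary less.

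Leaving out control replicate 1 left 3 members past the threshold, all lower after anti-CD73, and 0 higher. They were 3.85% of the members, against 22.2% of all genes tested (11.9% higher and 10.3% lower), so the share of members was again below the background. Mrpl2, at 1022 and 1087 in the remaining controls, lay at 807, 720 and 701 after anti-CD73, and the annotation has it overlap Klc4, so that the limit given for Mrpl24 holds for it too, as for Mrps9, which overlaps Gm23126. Its log2 fold change was -0.51 (SE 0.10, adjusted p 0.00794 by limma), against -0.13 with all 6 libraries. Mrps9 changed by -0.45 (SE 0.12) with an adjusted p of 0.0282 by limma. Mrps35, a mitochondria-specific protein of the small subunit, read 797, 1000 and 1159 in the 3 controls and 875, 854 and 863 after anti-CD73. Without the first control its log2 fold change was -0.32 (SE 0.09), with an adjusted p of 0.0400 by limma. Both edgeR and DESeq2 without that library called the same 3 members, against 22% and 21.8% of all genes. The marker lists differed in the same fit by limma without that library. As higher, 10 of 14 macrophage, 5 of 13 T cell and 4 of 9 neutrophil markers passed the threshold. So did 4 of 5 endothelial and 3 of 10 fibroblast markers, and 7 of 8 erythroid markers passed as lower. The background was 11.9% higher and 10.3% lower. By direction alone, 14 macrophage, 13 T cell, 8 neutrophil, 4 endothelial and 9 fibroblast markers lay higher, and 8 erythroid markers lower. The medians, in that order, were 0.99, 1.27, 0.39, 0.89, 0.43 and -1.66. Of the 3 epithelial markers 1 passed as lower, and by direction 2 lay lower and 1 higher. Of the 2 B cell markers 1 passed as higher and 1 as lower. Their part in the calls of the members was not tested.

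Without control replicate 1, the median over members was -0.08, with 55 lower and 23 higher, and the median over all genes was -0.02. Of the 30 large-subunit genes with bacterial counterparts, 27 were then lower and 3 higher. Of the 21 large-subunit genes specific to mitochondria, 10 were lower and 11 higher. In the small subunit, the 16 with bacterial counterparts had 9 lower and 7 higher (median -0.04). The 10 small-subunit genes specific to mitochondria had 9 lower and 1 higher (median -0.19). The difference between these groups was not tested. Groups did not overlap for 27 members, 34.6%, against 53.5% of all genes. They were 22 lower ones, or 28.2% against a background of 27.8%, and 5 higher ones, or 6.41% against 25.7%. The intervals lay within 1.5-fold for 67 members, 85.9%, against 54.5% of all genes. With control replicate 2 or anti-CD73 replicate 3 left out instead, groups did not overlap for 20 members each, against 29.4% and 36.2% of all genes.

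**Figure D5:**
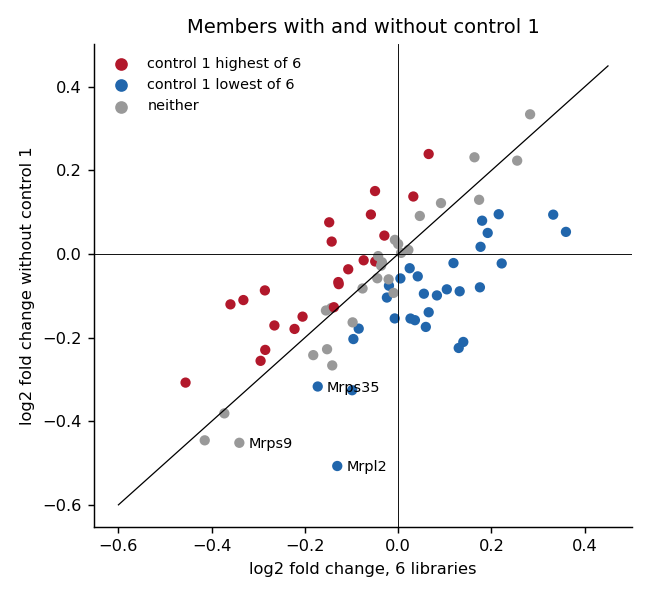
Log2 fold change of the 78 genes with all 6 libraries (horizontal axis) and without control replicate 1 (vertical axis), coloured by whether that library was the highest, the lowest or neither of the 6, with the line of equal values. Genes at which it was lowest lie below the line and those at which it was highest above it, which follows by arithmetic from leaving it out. The named genes are the 3 past the threshold without it, Mrpl2, Mrps9 and Mrps35.

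Members with and without a promoter motif had medians near 0, and the differences were not tested. The 26 members with an ETS core had a median log2 fold change of 0.002 and the 43 without it -0.04. The 8 with an NRF1 core had a median of -0.09 and the 61 without it -0.03, and the 13 with a YY1 core -0.01 against -0.04 for the other 56. The 5 with an E-box lay at -0.11 and the 2 with a cyclic AMP element at -0.19, both sets too small to say more. Mrpl32, whose stretch carries the run of NRF1 cores, had -0.29, and Mrpl10, with 1 such core, 0.16. Mrpl46 and Mrps11, which share the 41 bases shown, read 186, 188 and 162 against 197, 173 and 202, and 108, 148 and 168 against 138, 163 and 142. Their log2 fold changes were 0.09 and 0.08, with both groups overlapping. In control replicate 1 the pair parted, with Mrpl46 at 0.09 and Mrps11 at -0.55 from the other controls. Of the 69 members with a promoter window, 23 have another gene with a window that starts on the other strand within 500 bases upstream. That makes 22 pairs with Mrpl46 and Mrps11 counted as 1, and members without a window could not be searched. In 20 of these both genes were tested, and in 11 of the 20 both fold changes had the same sign. Of all genes tested, 6197 lay above 0 and 6065 below. Whether such pairs share a sign more often than other genes was not tested.

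Proteins of the same ribosome that carry other names also lay near 0. The 5 of them (Dap3, Ptcd3, Chchd1, Aurkaip1 and Gadd45gip1) had a median log2 fold change of -0.002, and 0 passed. Gadd45gip1, a large-subunit protein, read 351, 504 and 550 in the controls and 618, 496 and 543 after anti-CD73, and Ptcd3, of the small subunit, 2200, 1262 and 1278 against 1450, 1319 and 1439. Both overlapped between groups, and control replicate 1 was the lowest in the former and the highest in the latter. Of 24 genes that assemble the ribosome or modify its RNA, 0 passed, with 9 higher, 15 lower and a median of -0.03. Noa1, a GTPase needed for the small subunit, read 667, 582 and 605 against 717, 743 and 720. All its treated libraries were higher, by 0.24 on the log2 scale (SE 0.11, adjusted p 0.363 by limma). Mtg2, a GTPase of large-subunit assembly, lay at 0.36 (SE 0.18) and Gtpbp10, another one, at -0.50 (SE 0.30). With control replicate 1 left out, 3 of the 24 passed by limma, and they and the genes given for that fit in the following lists are named because they passed in it. Noa1 rose by 0.29 on the log2 scale (adjusted p 0.0443), while Rbfa, an assembly factor of the small subunit, fell by 0.57 (adjusted p 0.00421) and Mpv17l2, a factor of ribosome assembly, fell by 0.57 (adjusted p 0.0379).

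Of 18 measured genes that run or regulate mitochondrial translation, 6 lay higher and 12 lower with a median of -0.10, and 0 passed. Rmnd1, an inner membrane protein needed for this translation, read 104, 78.6 and 105 in the controls and 145, 124 and 140 after anti-CD73, all higher. Its log2 fold change was 0.52 (SE 0.19, adjusted p 0.265 by limma). Slirp, which stabilises mitochondrial messenger RNA, lay at -0.44 (SE 0.33), and Tsfm, an elongation factor, at -0.18 (SE 0.13). With that library left out, 1 of the 18 passed, Mrrf, the factor that recycles ribosomes, at 0.47 (adjusted p 0.0237 by limma), and it lay at 0.26 with all libraries.

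Of 11 genes of mitochondrial transcription and genome upkeep, 7 lay higher and 4 lower (median 0.11) and 0 passed. Together they took 0.0239 to 0.0258% of reads in controls and 0.0261 to 0.0295% after anti-CD73, shares parted by a narrow gap. On the authors' scale the summed counts of the groups overlapped, with control replicate 3 above anti-CD73 replicate 2. Polg, the mitochondrial DNA polymerase, read 632, 822 and 777 against 970, 896 and 1108, with all treated libraries higher and a log2 fold change of 0.42 (SE 0.15, adjusted p 0.244 by limma). Top1mt, a mitochondrial topoisomerase, lay at 0.38 (SE 0.16) and Ssbp1, which coats single-stranded mitochondrial DNA, at -0.27 (SE 0.13). Of 13 tested regulators of mitochondrial biogenesis, 4 lay higher and 9 lower (median -0.06) and 0 passed. Myc, a transcription factor that drives growth and ribosome genes, read 19468, 16094 and 16380 in the controls and 10996, 12695 and 14997 after anti-CD73. The groups did not overlap, and the log2 fold change was -0.43 (SE 0.15, adjusted p 0.248 by limma). Esrra, a nuclear receptor that acts on mitochondrial genes, lay at 0.60 (SE 0.28), and Nfe2l2, the regulator of the oxidative stress response, at -0.24 (SE 0.11).

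Genes used to gauge the amount of mitochondria lay mostly lower. Of 18 measured, 15 lay lower and 3 higher with a median of -0.15, and 0 passed. Together they made up 0.564 to 0.590% of reads in controls and 0.512 to 0.555% after anti-CD73. These shares of reads did not overlap, unlike those of the members, and lay lower. The shares of transcription and genome upkeep lay higher, but their groups overlapped on the authors' scale. In this list, 7 genes had all treated libraries below all controls, 38.9% of those measured, against a background of 12%. Vdac3, a channel of the outer membrane, read 530, 421 and 427 against 357, 313 and 360, with a log2 fold change of -0.41 (SE 0.15, adjusted p 0.248 by limma). Immt, which shapes the cristae, lay at -0.26 (SE 0.10), and Atp5f1a, a subunit of ATP synthase, at -0.24 (SE 0.11). In the fit that omits control replicate 1, 2 of the 18 passed: Atp5f1a fell by 0.28 (adjusted p 0.0282 by limma) and Atp5f1b, a further subunit, by 0.30 (adjusted p 0.0316 by limma). The difference between this list and the members was not tested. Of 18 cell cycle genes, 8 lay higher and 10 lower with a median of -0.01, and 0 passed. Plk1, a mitotic kinase, lay at 0.33 (SE 0.15), Ccnb1, a mitotic cyclin, at -0.44 (SE 0.21), and Mcm6, of the replicative helicase, at -0.20 (SE 0.10). Omitting control replicate 1, 1 of the 18 passed, Bub1, a checkpoint kinase, which rose by 0.30 (adjusted p 0.0399 by limma). In that fit 0 genes passed in the lists of other ribosome proteins, of transcription and genome upkeep and of biogenesis regulators.

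Marker lists of the cell types had medians farther from 0 than the members in the same fit. Every one of 13 T cell markers (median 0.66), 14 macrophage markers (0.70) and 5 endothelial markers (0.96) that were tested lay higher. Of the 9 neutrophil markers tested, 7 lay higher (0.89), and of the 10 fibroblast markers 7 (0.36). All 8 erythroid markers lay lower (-0.73). Of 3 epithelial markers tested, 1 lay higher (median -0.29), and of 2 B cell markers 1 (median -0.19). By limma, 0 of these markers passed.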

How the data were processed

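Per the labels, the values that the authors deposited are size-factor normalized gene counts from DESeq, a signal scale with no correction for gene length. The submitters' processing notes list Bowtie 0.12.7 and mm10 and give neither a role, and the counting tool was not stated in the sources used. The library kit was NEBNext Ultra II, per the labels' protocols. Of 25006 entries, 24082 carried a symbol. All values (100%) were whole multiples of the value of 1 read within 0.01, so reads were recovered. limma-trend (limma 3.58.1, R 4.3.3) was run on log2(normalized count + 1), which understates changes of low genes, for the 12262 genes with a mean of at least 10, two-sided, adjusted by Benjamini and Hochberg over all of them, at 0.05. edgeR 4.0.16 and DESeq2 1.42.0 were alternatives on recovered reads. Named members were the 8 smallest p in each direction, the 3 highest and 3 lowest counts, those called in another fit and a panel of known roles, and for each other list of mitochondrial genes the 3 smallest p. The members and lists were chosen with earlier results of these data known. The scripts were tested on simulated data. Figures used matplotlib 3.10.9.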

Additional observations from a re-analysis of the deposited data

How the results depend on the processing

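Pseudocounts (0.5, 8), filters (none, mean of 50), TMM and quantile scaling, edgeR, DESeq2, a replicate block and each library left out were tried. The fits by edgeR and DESeq2 that omit control replicate 1 were added after seeing the data. DESeq2 called 592 of all genes, where limma called 0. The number of members at an unadjusted p under 0.05, which was 2, was 5 after quantile normalization. Samples with the same number were not shown to be paired: deviations from the group means correlated at 0.19, -0.10 and 0.26 for numbers 1, 2 and 3, and control replicate 2 went best with anti-CD73 replicate 3, at 0.19. These are the numbers in the titles. The sample descriptions number the libraries 1, 2 and 4 in the controls and 2, 3 and 4 after anti-CD73, which would set control replicate 2 beside anti-CD73 replicate 1 (-0.16) and control replicate 3 beside anti-CD73 replicate 3 (0.26). With the replicate block by title number, 1 member had an unadjusted p under 0.05 and 0 passed. Without control replicate 1, edgeR called 2703 genes and DESeq2 2679, each called 3 members, and 9 and 6 members had an unadjusted p under 0.05. With each library left out in turn by limma, 0 to 2724 genes and 0 to 3 members were called, 0 to 10 members had an unadjusted p under 0.05, 11 to 27 had groups that did not overlap, and the median of the members lay between -0.08 and 0.03.

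The 31 members named by rule gave 525 values under the alternatives, of which 27, in 9 members, changed sign, all in members whose log2 fold change lay between -0.13 and 0.26. After quantile normalization Mrps36 lay at -0.0027 and Mrpl23 at -0.26, and by edgeR Mrps5 lay at 0.0086. Without control replicate 1, edgeR and DESeq2 gave -0.14 and -0.14 for Mrpl12, 0.015 and 0.016 for Mrpl44, -0.074 and -0.072 for Mrpl58, 0.16 and 0.16 for Mrps22 and -0.14 and -0.14 for Mrpl23. With each library left out in turn, Mrpl12 ranged from -0.15 to 0.12, Mrpl58 from -0.089 to 0.28, Mrps22 from -0.17 to 0.15, Mrpl23 from -0.16 to 0.17, Mrps5 from -0.093 to 0.070, Mrpl2 from -0.51 to 0.080, Mrpl11 from -0.13 to 0.052 and Mrpl44 from -0.14 to 0.021. The cause was not tested. Mrpl23 and Mrps36 had the fewest counts of all members.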
